A study of Mus musculus with 2 samples.

Results

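The 9 microRNA (miRNA) genes described here form a pair of related clusters, the miR-17/92 cluster on chromosome 14 and the miR-106b/25 cluster on chromosome 5. They were chosen by name, as the rows of the count tables whose identifier belongs to one of these genes in the GENCODE M21 annotation, and made up 9 of the 2202 miRNA genes counted. The series measured small RNA in hippocampus taken at 14 days of age from B6CASTF1/J males, hybrids whose parents are the inbred strains C57BL/6J and CAST/EiJ, supplied by The Jackson Laboratory. It held 1 group of 2 libraries, replicate 1 and replicate 2, made from total RNA and labelled with a size range of <30. Each label names 3 males, with different numbers in each, but both carry 1 donor identifier, so that SDs and p-values measure only how far these samples differ, and some of that may be technical. No treatment, genotype contrast or other tissue was included, so the comparisons were between the clusters, among their genes and between the libraries.

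Both clusters are transcribed as long RNAs from which several hairpins are cut, and each hairpin yields a mature miRNA of which the bases after the first, the seed, pair with target mRNAs. The miR-17/92 cluster lies in the non-coding gene Mir17hg and is known as a target of Myc and E2F factors and as a regulator of growth in progenitor and tumour cells. The miR-106b/25 cluster is a paralogue that shares the transcript of Mcm7, which encodes a subunit of the helicase that opens DNA at replication. In brain both are known from neural progenitors, and the levels below come from postnatal tissue in which most neurons have left the cell cycle.

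The mature sequences are shown because the shared seeds order the results that follow. They were taken from RefSeq (GRCm38.p6), where all 9 of 9 members were matched, and each is the arm known as the guide of its hairpin, written 5′ to 3′ with bases 2 to 8, the seed, in capitals. The counts did not separate the arms, so a gene's value covers both. The 4 genes of the seed AAAGUGC were Mir17 and Mir20a from the chromosome 14 cluster and Mir106b and Mir93 from the chromosome 5 cluster.
miR-17-5p: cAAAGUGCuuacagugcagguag
miR-20a-5p: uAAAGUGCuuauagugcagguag
miR-106b-5p: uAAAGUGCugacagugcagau
miR-93-5p: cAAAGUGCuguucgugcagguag
The seed AUUGCAC was shared by Mir92-1 of the first cluster and Mir25 of the second.
miR-92a-3p: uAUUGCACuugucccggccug
miR-25-3p: cAUUGCACuugucucggucuga
The remaining seeds, AAGGUGC of Mir18 and GUGCAAA of Mir19a and Mir19b-1, had no counterpart in the chromosome 5 cluster.
miR-18a-5p: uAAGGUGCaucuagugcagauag
miR-19a-3p: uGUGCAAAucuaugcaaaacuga
miR-19b-3p: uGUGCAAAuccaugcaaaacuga

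Counting positions from 1 at the 5′ end, miR-17-5p differed from miR-20a-5p by 2 bases (C1U and C12U) and from miR-93-5p by 4 (U10G, A11U, C12U and A13C), all outside the seed. Over 21 aligned bases, miR-25-3p differed from miR-92a-3p by 3 (C1U, U14C and U18C). The miR-19 guides differed by 1 base (U11C).

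Replicate 1 had 3793934 counts on miRNA genes and replicate 2 had 2554997. Levels are given as counts per 1000000 of these (CPM), on which scale a single count stood for 0.264 CPM in replicate 1 and 0.391 CPM in replicate 2. The limit that a count of 0 allows, 3 counts, was 0.791 and 1.17 CPM. Replicate 1 had 41.3% unmapped and 26.3% multimapping reads and replicate 2 had 20.7% and 37.5%, and multimapping reads were given to no gene. Of the 15 neuronal marker genes checked, 11 had 2 CPM or more in each library, beside 19.3% of all 2202 genes. Mir149, Mir132 and Mir128-1 were the highest. The Mir124a genes, several copies of which encode the most typical neuronal miRNA, had between 0 and 12 counts. Reads that fit several copies were given to no gene, so these counts may be too low. The same limit holds for Mir9, with a mature sequence found in 3 genes, and for Mir128, Mir138 and Mir218, each in 2. None of the 11 markers of pluripotent or early progenitor cells reached 2 CPM, their summed level being 1.58 and 2.35 CPM, and 6 of them were at 0 in both libraries.

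The miR-17/92 genes lie within 836 bases of the plus strand (mm10, chr14:115043671-115044506), all inside exon 2 of the 2-exon lincRNA transcript of Mir17hg, with 35 to 96 bases between neighbouring hairpins. From 5′ to 3′ their order is Mir17 (ENSMUSG00000065508.1), Mir18 (ENSMUSG00000065403.1), Mir19a (ENSMUSG00000065416.1), Mir20a (ENSMUSG00000065442.1), Mir19b-1 (ENSMUSG00000076256.1) and Mir92-1 (ENSMUSG00000076062.1). The miR-106b/25 genes lie within 498 bases of the minus strand (chr5:138165321-138165818) in the order Mir106b (ENSMUSG00000065514.1), Mir93 (ENSMUSG00000065527.1) and Mir25 (ENSMUSG00000065394.1), with gaps of 126 and 118 bases. All 3 are in intron 13 of the 15-exon protein-coding Mcm7 transcript. Mir93 and Mir25 also fall in exon 1 of a shorter, 2-exon Mcm7 transcript.

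Of the 9 members, 7 had at least 2 CPM in each library, beside 19.3% of all 2202 genes. The members together took 0.847% of the miRNA counts in replicate 1 and 1.09% in replicate 2 (0.970% ± 0.173, SD, n = 2). No member had a read on the opposite strand in either library.

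Among the AAAGUGC genes, Mir93 was the highest of all members, at 3796 CPM in replicate 1 and 5185 CPM in replicate 2 (4490 ± 982, SD, n = 2), and ranked 43 among the 2202 genes by mean CPM. Mir17, the first hairpin of its cluster, followed at 2108 and 2302 CPM (2205 ± 137) and ranked 72. Neither library's value for Mir17 reached the lower value of Mir93, and Mir93 exceeded Mir17 1.80-fold (95% exact interval 1.75 to 1.85) in replicate 1 and 2.25-fold (2.18 to 2.32) in replicate 2. Mir106b, the first hairpin of the Mcm7 cluster, stood at 639 and 874 CPM (757 ± 166, rank 119). Mir20a stood at 395 and 672 CPM (533 ± 196, rank 135). The values of these last genes overlapped between libraries, since Mir20a in replicate 2 was above Mir106b in replicate 1, although Mir106b was the higher of the pair within each library.

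In the AUUGCAC pair, Mir92-1 was at 1336 and 1652 CPM (1494 ± 223, SD, n = 2, rank 88) and Mir25 at 82.2 and 119 CPM (100.4 ± 25.7, rank 209). Mir92-1, the last hairpin of the Mir17hg cluster, was higher in both libraries, by 16.2-fold in replicate 1 and 13.9-fold in replicate 2. Mir18, the only member with the seed AAGGUGC, stood at 113 and 118 CPM (115 ± 3.35, rank 199). Mir18 and Mir25 were not separable: Mir18 was the higher in replicate 1, and Mir25 exceeded it by less than 1 CPM in replicate 2.

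The miR-19 genes stood at the bottom. Mir19a had 0 counts in both libraries, and Mir19b-1 had 3 counts in replicate 1 (0.791 CPM, 95% exact Poisson interval 0.163 to 2.31) and 2 in replicate 2 (0.783 CPM, 0.0948 to 2.83). These miRNAs, known as the main oncogenic component of miR-17/92 in lymphoma, lie between Mir18 and Mir92-1 on the same transcript. Against the limit of 3 counts per library, Mir17 was at least 2665-fold higher than Mir19a in replicate 1 and at least 1960-fold higher in replicate 2. The exact 95% interval, a wider limit, began at 2167-fold and 1594-fold. Mir17 exceeded Mir19b-1 by 2665-fold (912 to 12927) and 2940.5-fold (814 to 24286). All intervals and limits here cover counting error only, since the labels name no molecular identifiers.

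Repeated sequence was checked for these genes, since multimapping reads were not counted. The guide miR-19b-3p is found in 2 annotated hairpins, Mir19b-1 and Mir19b-2 on chromosome X, which share a stretch of 25 bases, so that a read of it cannot be placed and the count of Mir19b-1 is uncertain. The guide miR-19a-3p was found in 1 annotated hairpin, and the longest stretch Mir19a shares with any other annotated miRNA gene was 13 bases. A search of the whole genome was not made. Mir92-1 shares a 22-base stretch with Mir92-2 on chromosome X that holds all of the guide. A read of that guide alone cannot be placed either, so the value of Mir92-1 is uncertain too. Whether its counted reads were longer or came from the other arm was not determined. The shared stretches are shown with the guide in capitals.
Mir19b-1 and Mir19b-2: gcUGUGCAAAUCCAUGCAAAACUGA
Mir92-1 and Mir92-2: gUAUUGCACUUGUCCCGGCCUG
The other 6 members shared at most 17 bases with another miRNA gene.

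The hairpins of the highest gene of each cluster and of the gene without a count are given with the mature arms listed by RefSeq in capitals. They show that RefSeq lists both arms for Mir17 and Mir93 and 1 arm for Mir19a.
Mir17: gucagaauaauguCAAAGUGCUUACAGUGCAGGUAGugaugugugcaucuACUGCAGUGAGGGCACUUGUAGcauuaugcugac
Mir93: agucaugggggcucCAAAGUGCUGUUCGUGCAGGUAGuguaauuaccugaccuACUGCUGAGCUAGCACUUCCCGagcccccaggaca
Mir19a: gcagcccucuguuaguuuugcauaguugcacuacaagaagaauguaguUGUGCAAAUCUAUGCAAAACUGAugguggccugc
The hairpin of Mir17 has 84 bases, that of Mir93 88 and that of Mir19a 82, and the order of the members by mean CPM was the same when each value was divided by the annotated length.

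**Figure D1:**
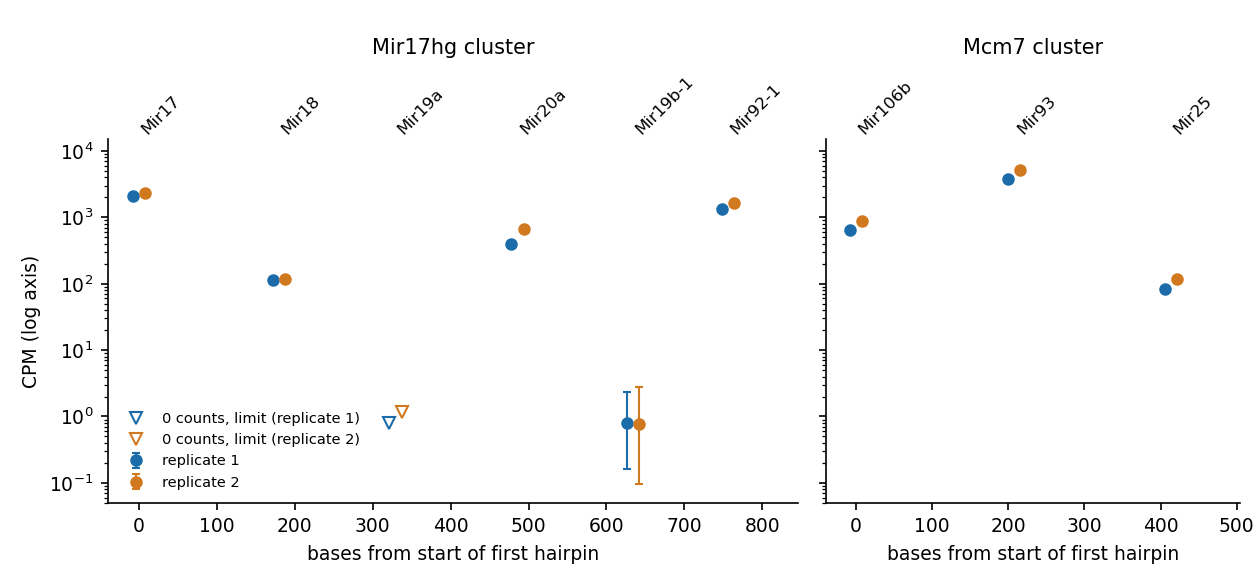
Level of each member in CPM (logarithmic axis) at its distance from the start of the first hairpin of its cluster, in bases, with 1 point per library and 95% exact Poisson intervals. Open triangles give the limit of 3 counts for Mir19a, which had 0 counts. Mir17, Mir20a and Mir92-1 stand at 395 CPM or more on the same transcript as Mir19a and Mir19b-1, which stay below 1 CPM where counts were present.

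From the highest, the order of the members was Mir93, Mir17, Mir92-1, Mir106b, Mir20a, Mir18, Mir25, Mir19b-1 and Mir19a. Neighbours in this order whose libraries overlapped were Mir106b with Mir20a and Mir18 with Mir25. The other neighbours did not overlap over 2 libraries, though for the miR-19 genes the counting intervals did.

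Between the clusters, the question was whether the copy in Mir17hg or the copy in Mcm7 held more of the counts in these libraries. Counts of different sequences were not calibrated against known amounts of RNA. The 6 Mir17hg genes summed to 3952 CPM in replicate 1 and 4744 CPM in replicate 2 (4348 ± 560, SD, n = 2). The 3 Mcm7 genes summed to 4517 and 6178 CPM (5348 ± 1174). The Mcm7 cluster was the higher in each library, 1.14-fold (1.12 to 1.17) in replicate 1 and 1.30-fold (1.27 to 1.33) in replicate 2, with a mean of 1.22 ± 0.113. The sums overlapped across libraries, as the Mir17hg cluster in replicate 2 was above the Mcm7 cluster in replicate 1. On the log2 scale the Mir17hg cluster stood at -0.29 ± 0.13 relative to the Mcm7 cluster, with the same sign in both libraries. An exact two-sided sign-flip permutation test over 2 libraries cannot give less than p = 0.5, so it says nothing about this difference. Fisher's exact test of both sums over both libraries gave an odds ratio of 1.14 (1.10 to 1.18, two-sided p = 2.42e-15), which is a comparison of these libraries for counting error only.

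The direction is uncertain, because Mir92-1 held 33.8% and 34.8% of the Mir17hg counts, its guide is shared with Mir92-2 as described above, and an unknown number of its reads may not have been counted. The size of the difference depended on which genes were summed. Without Mir92-1 and Mir19b-1 the log2 ratio of the Mir17hg to the Mcm7 cluster was -0.89. As a mean per gene, the Mir17hg cluster had 659 and 791 CPM and the Mcm7 cluster 1506 and 2059 CPM.

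The clusters differed in make-up. Mir93 held 84.0% and 83.9% of the Mcm7 counts, Mir106b 14.1% and 14.2%, and Mir25 1.82% and 1.92%. The shares of the Mir17hg counts were 53.3% and 48.5% for Mir17, 33.8% and 34.8% for Mir92-1, 9.98% and 14.2% for Mir20a and 2.86% and 2.48% for Mir18. Mir93 exceeded Mir106b by 5.94-fold (5.69 to 6.20) in replicate 1 and 5.93-fold (5.67 to 6.20) in replicate 2, and Mir25 by 46.2-fold (41.3 to 51.8) and 43.7-fold (39.0 to 49.2). Those ratios between libraries lay within counting error. In the Mir17hg cluster the same held for Mir17 over Mir18, at 18.6-fold (16.9 to 20.6) and 19.5-fold. It did not hold for Mir17 over Mir20a, at 5.34-fold (5.05 to 5.65) and 3.42-fold (3.24 to 3.61), nor for Mir17 over Mir92-1, at 1.58-fold (1.52 to 1.63) and 1.39-fold (1.34 to 1.45).

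**Figure D2:**
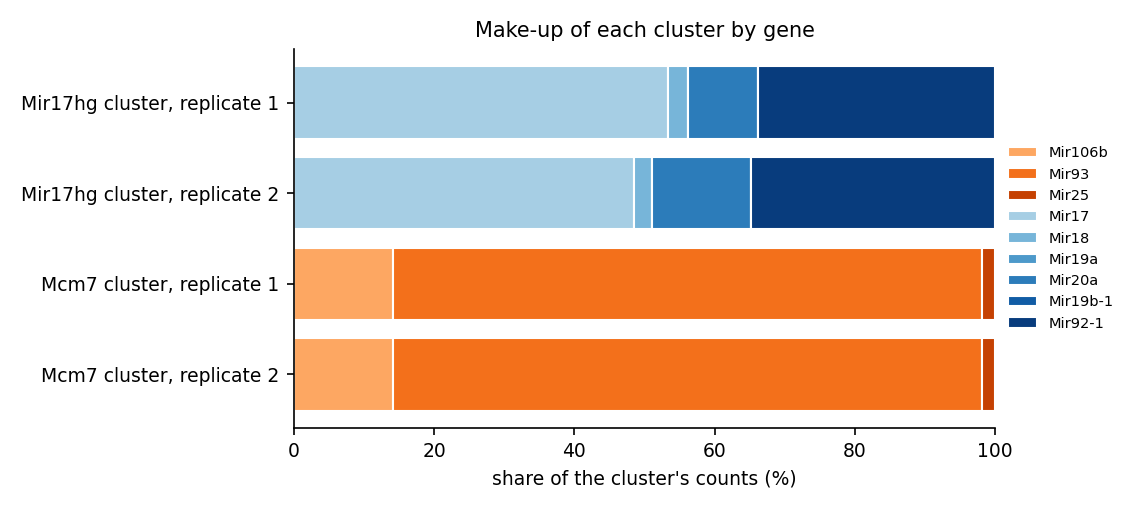
Share of each cluster's counts (%) held by each of its genes, with 1 bar per cluster and library. Mir93 fills 84.0% and 83.9% of the Mcm7 bars, whereas Mir17 and Mir92-1 divide most of the Mir17hg bars and the Mir20a segment differs between the libraries (9.98% and 14.2%).

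Summed by seed across both clusters, the AAAGUGC genes held 81.9% and 82.7% of the members' counts, at 6937 and 9033 CPM (7985 ± 1482, SD, n = 2). Within that sum the Mcm7 genes gave 4435 and 6059 CPM and the Mir17hg genes 2502 and 2974 CPM. The AUUGCAC pair held 16.7% and 16.2% (1419 and 1770 CPM), of which nearly all was Mir92-1. Sums go by the guide of each gene, and which arm the counted reads of Mir92-1 came from is not known. Mir18 held 1.34% and 1.08%, and the miR-19 seed 0.00934% and 0.00717%. These shares are uncertain, since the guides of Mir92-1 and Mir19b-1 each lie in 2 annotated hairpins and may lack uncounted reads. The AAAGUGC guides of the members each lie in 1, so the AAAGUGC share may be too high.

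**Figure D3:**
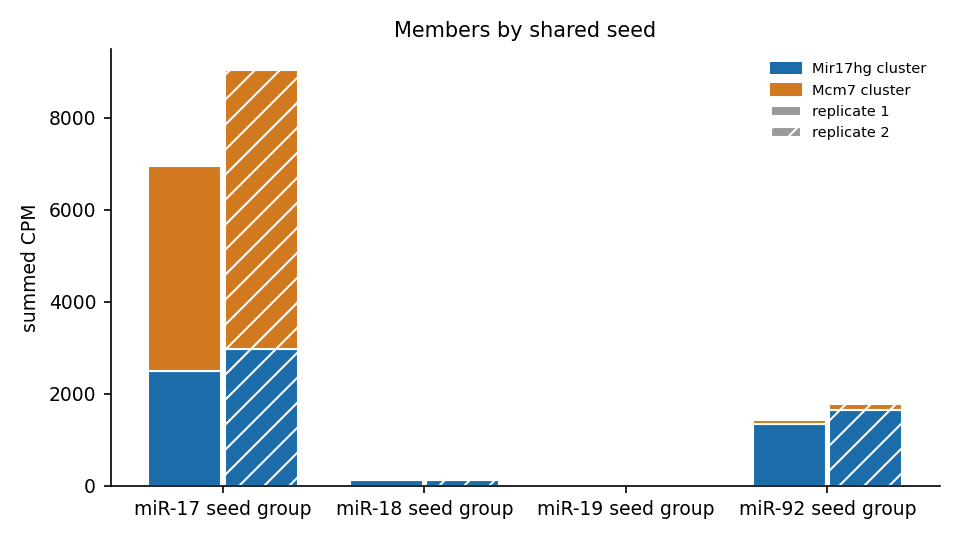
Summed CPM of the members by seed, split by cluster and shown for each library. The sum of the AAAGUGC genes (miR-17 seed group), 6937 and 9033 CPM, comes from both clusters, with the Mcm7 genes above the Mir17hg genes in each library. Reads of the guides miR-92a-3p and miR-19b-3p, each found in 2 annotated hairpins, may be missing from their groups.

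A further paralogue cluster on chromosome X, with the genes Mir106a, Mir18b, Mir20b, Mir19b-2, Mir92-2 and Mir363, was far lower, summing to 46.9 and 47.4 CPM (47.1 ± 0.312, SD, n = 2). Its guides carry the same seeds, and those of the AAAGUGC seed are shown for comparison with miR-17-5p and miR-20a-5p.
miR-106a-5p: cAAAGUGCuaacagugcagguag
miR-20b-5p: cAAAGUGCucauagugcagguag
The first differs from miR-17-5p by 1 base (U10A), yet Mir106a had 16 and 29 counts (4.22 and 11.4 CPM), and Mir17 was 499.75-fold (308 to 875) and 203-fold (141 to 303) higher. Mir20b had 12 and 11 counts (3.16 and 4.31 CPM), 125-fold and 156-fold below Mir20a. Mir92-2 held most of the cluster's counts, at 136 and 67 (35.8 and 26.2 CPM), with the uncertainty of its repeated guide. Mir363 had 13 and 12 counts, Mir18b 1 and 2, and Mir19b-2 0 in both libraries. The members held 99.9% and 99.8% of the CPM of the 6 listed AAAGUGC genes. RefSeq gives this seed to 1 further gene outside the list, Mir6383, which had 0 counts in both libraries.

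For the AUUGCAC seed most of the counted level lay outside the clusters. Apart from the X-linked paralogues, the seed is carried by Mir92b, Mir32 and Mir367, and Mir92b was higher than any member, at 7708 and 7637 CPM (7672 ± 50.4, SD, n = 2, rank 30).
miR-92b-3p: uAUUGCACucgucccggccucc
This guide differs from miR-92a-3p by 2 bases over the first 21 (U10C and G21C). Mir92b exceeded Mir92-1 by 5.77-fold in replicate 1 and 4.62-fold in replicate 2, and the members held 15.4% and 18.7% of the CPM of the 7 listed AUUGCAC genes. These values are uncertain, since the guide of Mir92-1 lies in 2 hairpins and multimapping reads were not counted. The guide of Mir92b is listed for 1 gene. How many reads Mir92-1 lacks is not known. Mir32 stood at 27.7 and 43.8 CPM, and Mir367, known from pluripotent cells, had 0 counts in both libraries.

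Between the libraries, all 7 members with at least 10 counts in sum had a higher CPM in replicate 2. Mir20a differed by the largest fold, 1.70 (1.59 to 1.83), with an adjusted p of 1.67e-50 in a two-sided exact binomial test with Benjamini-Hochberg adjustment over 507 genes. The Mcm7 genes moved by like amounts, 1.37-fold for Mir106b (1.29 to 1.45, adjusted p = 1.05e-25 in the exact test), 1.37-fold for Mir93 (1.33 to 1.40, adjusted p = 1.24e-145) and 1.44-fold for Mir25 (1.23 to 1.69, adjusted p = 2.03e-05). Mir92-1 was 1.24-fold higher (1.19 to 1.29, adjusted p = 2.05e-23 in the exact test) and Mir17 1.09-fold higher (1.06 to 1.13, adjusted p = 9.65e-07). Mir18 had a ratio of 1.04 (0.896 to 1.21) and was not called (adjusted p = 0.698 in the exact test).

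Thus 6 of the 7 members tested were called, all higher in replicate 2. Over all genes tested 52.1% were called, 26.8% as higher in replicate 2 and 25.2% as higher in replicate 1. Calls depend on depth, and with at least 50 counts in sum 243 of 338 genes were called, 128 of them higher in replicate 2. The 7 members tested all lay above that depth, so only the adjustment changed for them, and the same 6 were called. The exact binomial test covers counting error only. With a negative binomial test at edgeR's common dispersion, which takes the spread between the libraries as error, 0 of the 7 members were called and 0 had an unadjusted p under 0.05. That test called 0.394% of all genes. The median log2 ratio of replicate 2 to replicate 1 was 0.45 over these members (0.06 to 0.77) and -0.02 over all genes tested, while the median size of the log2 ratio, without its sign, was 0.45 over the members and 0.44 over the 426 genes with 2 CPM or more in each library.

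Summed levels of markers also differed between the libraries. They were 51038 and 35820 CPM in replicates 1 and 2 for the 15 neuronal genes, 4060 and 1247 CPM for 3 oligodendrocyte genes, 14332 and 11076 CPM for 3 endothelial and mural genes, and 1743 and 1640 CPM for 4 microglial and myeloid genes. The 4 genes of choroid plexus and ciliated cells gave 1977 and 929 CPM and the 3 erythroid genes 75.4 and 192 CPM. Single genes did not all follow the sums. Of the neuronal genes, 4 were called higher in replicate 1 and 4, Mir128-1, Mir128-2, Mir9-1 and Mir9-3, higher in replicate 2. Several neuronal genes have repeated mature sequences, so their sums and calls may be affected by uncounted multimapping reads. Mir143 of the endothelial and mural list and Mir150 of the myeloid list were called higher in replicate 2, and Mir486 of the erythroid list higher in replicate 1, each against its list's sum. No gene of these lists was at 0 in both libraries. Their part in the members' differences was not tested, and in bulk tissue fewer cells of a type and less RNA per cell cannot be told apart.

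**Figure D4:**
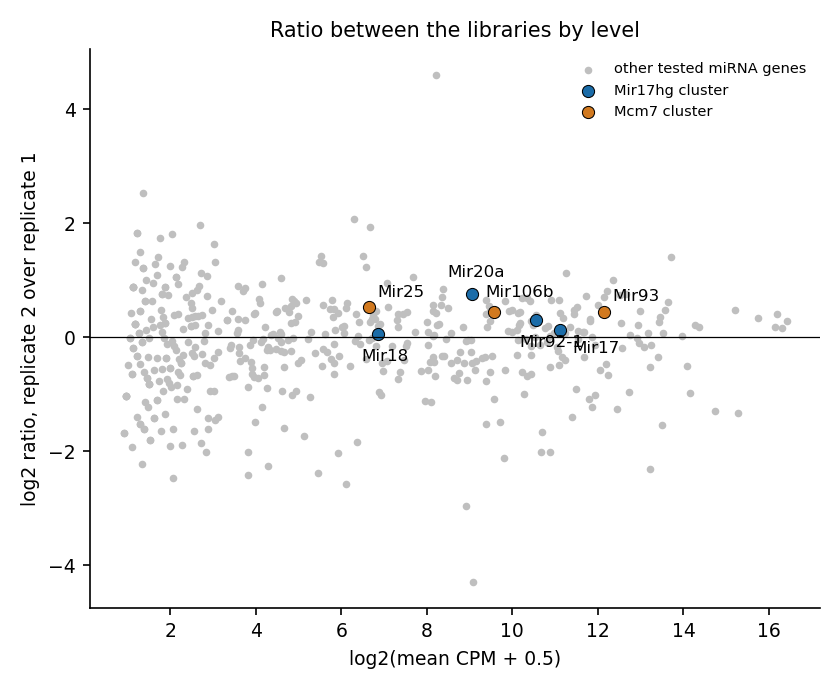
Log2 ratio of replicate 2 to replicate 1 against log2(mean CPM + 0.5) for the 507 genes tested, with the members in colour. The 7 members lie above 0, between 0.06 and 0.77, inside the spread of the other genes.

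Neighbouring hairpins of other miRNA clusters also stood at unequal levels. The annotation held 14 clusters of at least 3 genes with 2 CPM or more, on the same strand and at most 10 kb apart. The range from the lowest to the highest such gene had a median of 6.68 on the log2 scale (0.74 to 12.38), with 5.48 for the Mcm7 cluster and 4.25 for the Mir17hg cluster. The SD of the log2 ratio between the libraries over the genes of a cluster was 0.04 for the Mcm7 cluster, the smallest of the 14, and 0.32 for the Mir17hg cluster, beside a median of 0.61. Of the 12 clusters whose highest gene reached 100 CPM, 6 also contained a gene at no more than 3 counts in both libraries, the Mir17hg cluster with its miR-19 genes among them.

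**Figure D5:**
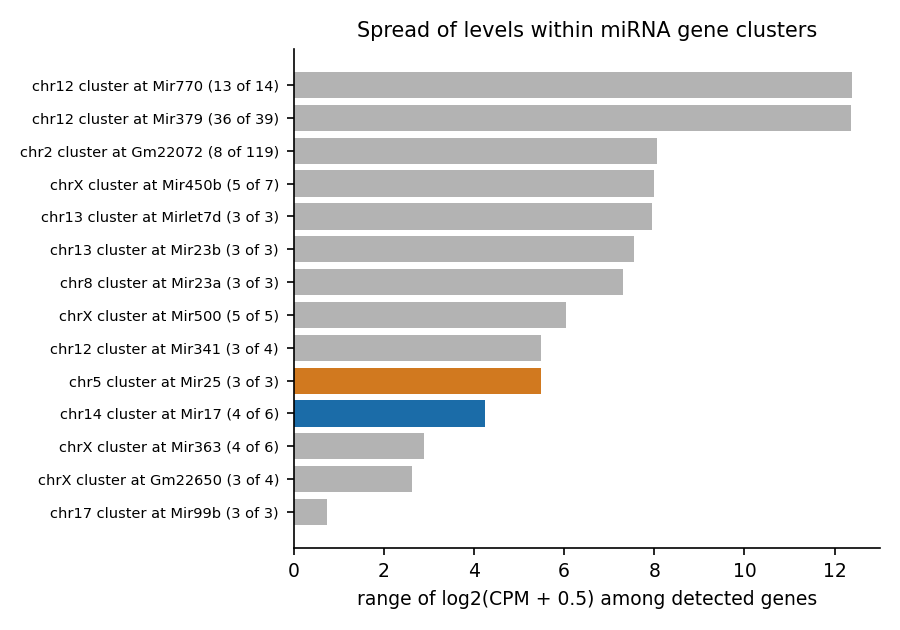
Range from the lowest to the highest level, on the log2(CPM + 0.5) scale, among the detected genes of each of the 14 annotated clusters, named by chromosome and a gene, with detected and annotated genes counted in brackets. The Mcm7 cluster (orange, 5.48) and the Mir17hg cluster (blue, 4.25, without its miR-19 genes) lie below the median range of 6.68.

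By distance in log2(CPM + 0.5) over the 2 libraries, the genes whose levels were most like Mir17 were Mir598 (distance 0.12), Mir434 (0.18) and Mir181c (0.19). Those most like Mir93 were Mir130a (0.19), Mir137 (0.21) and Mir23a (0.26). With 2 libraries this measure reflects little beyond the level itself.

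Of 21 other miRNA genes linked to growth and the cell cycle, 19 had 2 CPM or more in each library, beside 19.3% of all 2202 genes. The 3 highest were Mir23a at 3446 and 6053 CPM, Mir130a, which shares its seed with miR-301, at 3418 and 5584 CPM, and Mir221, a known repressor of the cell-cycle inhibitor p27, at 4788 and 2259 CPM. Mir93 lay between Mir130a and Mir221 in mean level. Of the 20 tested, 18 were called by the exact binomial test, 12 as higher in replicate 2 and 6 as higher in replicate 1. Over all genes tested the shares were 52.1%, 26.8% and 25.2%. With at least 50 counts in sum, 243 of 338 genes were called. The negative binomial test called 1 of the 20, beside 0.394% of all genes tested. The median log2 ratio of the 20 was 0.47.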

How the data were processed

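Small RNA libraries from 1 group of 2 samples were analysed. The tables the authors deposited give unscaled whole-number counts of reads for each miRNA gene of GENCODE M21 on mm10, per the submitters' processing notes and the deposited text. Aligner, counter and trimming were not given in the sources used here. Of the 3 count columns, that on the gene's strand was taken as the larger of the stranded totals, and 4 rows of reads given to no gene stayed out of totals. CPM are counts per 1000000 counts on miRNA genes. Detection meant at least 2 CPM in both libraries. Genes with at least 10 counts in sum were compared between the libraries by an exact binomial test given the totals, with Benjamini-Hochberg adjustment and a threshold of 0.05, and by edgeR's exact test at the common dispersion. Ratios within a library carry exact 95% intervals. The scripts were tested on simulated data. Mature sequences came from RefSeq (GRCm38.p6) and hairpins from the GENCODE M21 transcripts. The hairpins were searched for stretches of 20 bases shared with another annotated miRNA gene.

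Named are all members, the X-linked paralogues, the other listed genes with a member's seed, the 3 genes of each further list with the highest mean CPM, and the 3 genes nearest in level to the highest gene of each cluster. Other marker genes were named after their values were seen. The members and lists were chosen with earlier results of these data known. R 4.3.3, edgeR 4.0.16, DESeq2 1.42.0 (size factors only), Python 3.11.15, scipy 1.17.1 and matplotlib 3.10.9 were used.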

Additional observations from a re-analysis of the deposited data

How the results depend on the processing

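The 7 members tested kept a ratio of replicate 2 to replicate 1 above 1 under the 4 scalings run. Scaling to all reads moved the median of all genes by 0.36 (log2), gave folds of 1.34 to 2.19, called Mir18 as well, and called 278 genes, of which 203 were higher in replicate 2, where the main test called 264, of which 136 were higher in replicate 2. The negative binomial test called 0 members and 1 of the growth-linked genes, Mir301. Without the genes sharing a stretch, the log2 ratio of the Mir17hg to the Mcm7 cluster was -0.89 and the AAAGUGC share of the members' counts was 97.4%, and as a mean per gene the ratio was -1.29. At a minimum of 5 CPM, 3 related genes were detected, against 6 at 2 CPM. Under TMM scaling 128 of 261 called genes were higher in replicate 2. No tested member's ratio between the libraries changed sign under the other scalings. The remaining alternatives used the same counts and totals for this ratio, so its sign could not change. In replicate 2 alone Mir25 stood above Mir18. The ratio between the clusters kept its sign too. Of the alternatives, only division by annotated gene length (-0.25, log2) could have changed it. The others repeated the same counts, left out Mir17hg genes only, averaged over more Mir17hg than Mcm7 genes, or used 1 library. They could not change the sign. No alternative restored uncounted reads of Mir92-1, so the direction stays uncertain. No paired analysis was possible because there is 1 group. Counts of 0 to 3 limit what can be said of the miR-19 genes.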

Other observations

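Among the members' guides printed above, those of Mir19a, Mir19b-1 and Mir25 end in A and the other 6 in G or U. The GC content of the guides ran from 34.8% for miR-19a-3p to 57.1% for miR-92a-3p, with 50% for miR-25-3p. Both properties were noticed after the values were seen, were not tested, and are given as descriptions.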
